A study of Klebsormidium nitens with 4 samples.

Results

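The data set holds gene expression of the charophyte alga Klebsormidium nitens (strain NIES-2285) for 17290 genes, and the 3 genes described here encode enzymes of state transitions. They are the kinases STN7 (kfl00129_0080) and STN8 (kfl00018_0210) and the phosphatase PPH1 (kfl00753_0080), taken by the identifiers that the study's text gives for them and not by their measured values. RNA-seq libraries were made from 4 photobioreactor cultures of this strain, all grown at 20 °C in air enriched with 1% CO2. The low light (LL) group consisted of 2 cultures kept at 50 µE per square metre and second, and the high light (HL) group of 2 cultures moved for 3 h to 1500 µE per square metre and second. Values are FPKM, that is, sequenced fragments divided by exon length and by the mapped reads of the library. Levels of different genes within a library can be set side by side only roughly, since the exon models were not checked here. The depth behind a single value is not known here beyond the submitters' figure of about 17000000 reads of 50 nt per library. The files hold transcript levels only, and neither protein amount nor phosphorylation is part of them. In a culture, a lower level of a transcript in each cell and fewer cells carrying it cannot be told apart.

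State transitions are a way by which plants and green algae share absorbed light between photosystem II (PSII) and photosystem I (PSI). When the plastoquinone pool between the photosystems is reduced, a thylakoid kinase bound to the cytochrome b6f complex phosphorylates the mobile antenna, light harvesting complex II (LHCII), part of which then serves PSI. In Arabidopsis this kinase is STN7, its relative STN8 acts mainly on core proteins of PSII, and PPH1, also known as TAP38, removes the phosphate from LHCII so that it returns to PSII. The balance of kinase and phosphatase therefore sets how much of the antenna is phosphorylated. The roles of the K. nitens genes are taken over from the land plant, and the study's text lists both kinases under one name, STN7/8, so that the first identifier is called STN7 and the second STN8 here.

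Under high light the transcript of the phosphatase fell, while those of both kinases stayed within the spread of their replicates. PPH1 was repressed 3.74-fold, from a mean FPKM of 81.6 to 21.8. By contrast, the mean FPKM ratio of HL to LL was 0.961 for STN7 and 0.885 for STN8. These are ratios of FPKM as deposited, without normalization between libraries. The order of the 3 transcripts turned over, since PPH1 was the most abundant of them in each LL library and the least abundant in each HL library. The mean ratio of STN7 to PPH1 was 0.589 in LL and 2.12 in HL.

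FPKM of PPH1 was 80.2 and 83.0 in LL replicates 1 and 2, and 22.4 and 21.3 in HL replicates 1 and 2. The replicates were close in both conditions and the conditions lay far apart, with 81.6 ± 1.94 (SD, n = 2) in LL and 21.8 ± 0.777 (SD, n = 2) in HL. A limma linear model was fitted across all 17290 genes on quantile normalized log2(FPKM + 1), with Benjamini-Hochberg adjustment, and a gene was called activated or repressed at a log2 fold change of at least 1 in absolute value and an adjusted p below 0.05. PPH1 was called repressed at a log2 value of -1.78 for HL against LL (standard error 0.07, 95% interval -2.03 to -1.52, limma adjusted p = 0.0201). In this fit 3.51% of all genes were called repressed and 7.51% were called in either direction. Shares of all genes given here include the 5470 genes that were at 0 in every library. Both HL libraries lay below both LL libraries for PPH1, which was so for 33.1% of all genes and for 50.0% of the 10557 genes above 0 in all 4 libraries. When 1 library was omitted at a time this value stayed between -1.85 and -1.71, but the adjusted p of limma rose to between 0.0962 and 0.133 and the call was lost in each case, in fits that keep 3 libraries and assume that the lone library varies like the pair of the other condition.

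STN7 had an FPKM of 46.2 and 50.0 in LL replicates 1 and 2, and of 49.7 and 42.8 in HL replicates 1 and 2. The conditions overlapped, since HL replicate 1 lay between the LL libraries, and the highest of the 4 values was 1.17 times the lowest. Its log2 fold change was -0.01 (standard error 0.13, limma adjusted p = 1). The 95% interval from -0.51 to 0.50 corresponds to ratios between 0.70 and 1.41. With 2 libraries per condition, a change of either sign within these bounds is therefore not excluded.

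STN8 had an FPKM of 44.6 and 35.5 in LL replicates 1 and 2, and of 33.1 and 37.7 in HL replicates 1 and 2. Here too the conditions overlapped, and the LL replicates stood farther apart than the means of the conditions, 40.0 ± 6.45 against 35.4 ± 3.22 (SD, n = 2 each). The log2 fold change was -0.09 (standard error 0.15, limma adjusted p = 0.964), with a 95% interval from -0.64 to 0.46, or ratios between 0.642 and 1.37. The sign of both small changes depended on library scaling. With median scaling of FPKM in place of quantile normalization the log2 fold changes were 0.15 for STN7 and 0.05 for STN8, and without normalization, which moved the median over genes detected in every library to -0.22, they were -0.06 and -0.17. Neither kinase was called in any setting tried.

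**Figure D1:**
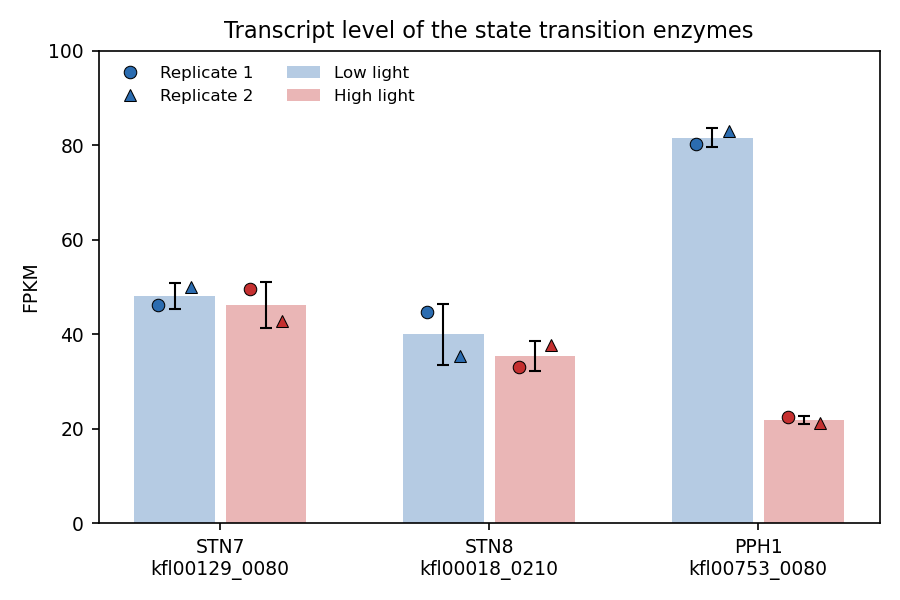
FPKM of STN7, STN8 and PPH1 in low light (blue) and high light (red), with bars for the mean of 2 libraries, error bars for the SD, circles for replicate 1 and triangles for replicate 2. The points of both conditions interleave for the kinases, whereas PPH1 lies at 80.2 and 83.0 in low light and at 22.4 and 21.3 in high light.

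The place of the 3 genes in the whole transcriptome moved in the same manner. Among the genes above 0 in a library, PPH1 ranked 1368 and 1255 in the LL libraries, within the most abundant 12.1% and 11.1%, and 4000 and 4216 in the HL libraries, within the most abundant 35.9% and 38.0%. STN7 kept a rank between 2104 and 2469 in the 4 libraries and STN8 between 2465 and 2962. The kinases therefore remained in the upper 18.9% to 26.6% of expressed genes throughout, and PPH1 passed from above them to below them. Among the 607 repressed genes PPH1 was in position 169 when ordered from the most negative log2 fold change, with a median of -1.45 over these genes, and in position 163 by its mean FPKM in LL.

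The kinase to phosphatase ratio was formed within each library from FPKM as deposited, so that the scaling of a library cancels out of it. STN7 over PPH1 was 0.576 and 0.603 in LL replicates 1 and 2, and 2.22 and 2.01 in HL replicates 1 and 2. It was thus below 1 in both LL libraries and above 2 in both HL libraries, and its mean rose 3.59-fold. Over the possible pairs of an HL with an LL library the rise was between 3.34-fold and 3.85-fold. STN8 over PPH1 was 0.556 and 0.428 in LL, and 1.48 and 1.77 in HL. This ratio also passed from below to above 1, but its replicates were less alike than those of STN7 over PPH1, and the rise per pair of libraries lay between 2.67-fold and 4.15-fold.

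The summed FPKM of both kinases over that of PPH1 was 1.13 and 1.03 in LL, and 3.70 and 3.79 in HL. In FPKM the kinase transcripts together were hence about level with PPH1 in low light and well above it in high light. The ratio was 1.08 ± 0.0717 against 3.74 ± 0.0595 (SD, n = 2 each). On the log2 scale the change of this sum ratio was 1.79, which is 25.8 times the pooled SD of the replicates, against 23.7 times for STN7 over PPH1 and 7.56 times for STN8 over PPH1. A SD from 2 libraries per condition is itself uncertain, so these multiples are rough. The 3 ratios also share PPH1 and are not separate results. As a comparison that does not involve the phosphatase, STN7 over STN8 was 1.04 and 1.41 in LL, and 1.5 and 1.14 in HL. The conditions overlapped in it, and STN7 was the more abundant kinase in every library, although by little in LL replicate 1 and HL replicate 2. An exact two-sided permutation test over the 4 libraries cannot go below p = 0.333. It gave this smallest p for the 3 ratios over PPH1 and 0.667 for STN7 over STN8, or 0.444 and 0.667 after Benjamini-Hochberg adjustment over the 4 ratios, so that with 2 libraries per condition the rise rests on its size against the replicate spread.

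**Figure D2:**
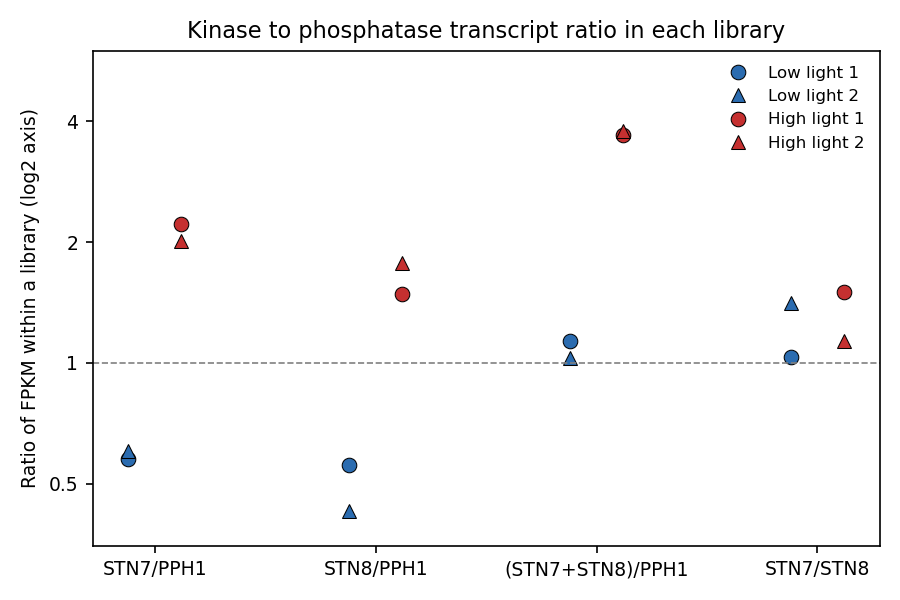
Ratios of FPKM within each of the 4 libraries on a log2 axis, for each kinase over PPH1, for both kinases summed over PPH1 and for STN7 over STN8, with low light in blue and high light in red. The 3 ratios over PPH1 separate the conditions, at 0.428 to 1.13 in low light and 1.48 to 3.79 in high light, while STN7 over STN8 overlaps between them.

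To see how steady the kinases were, each gene was set against the 500 genes nearest to it in mean log2(FPKM + 1) over the 4 libraries. For STN7 these genes had levels between 41.9 and 52.9 FPKM, and only 3 of them (0.6%) had a smaller absolute log2 fold change. For STN8 the levels ran from 34.0 to 41.4 FPKM and 45 genes (9.0%) had a smaller change. Most genes of this abundance changed more than the kinases, as the median absolute log2 fold change was 0.52 around STN7 and 0.53 around STN8. Of the neighbours in abundance, 14.2% were called around STN7 and 14.6% around STN8, against 7.51% of all genes. The share of all genes is lowered by the 5470 genes at 0 in every library, so these shares are not like for like. The conditions overlapped in FPKM, as they did for both kinases, in 15.2% of the genes around STN7 and in 17.6% of those around STN8.

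The exact position of a kinase in this order was not fixed by the data. It was 16.0% for STN7 and 3.8% for STN8 with median scaling of FPKM, and 5.8% and 17.0% without normalization. Leaving out 1 library at a time gave 7.20% to 13.4% for STN7 and 2.60% to 25.2% for STN8, the last value being that without LL replicate 2. In each of these settings at least 74.8% of the genes of like abundance changed more than the kinase. Closeness of the replicates does not set the kinases apart as steady. The difference between STN7 replicates was larger than in 57.0% of the genes around it in LL and 84.0% in HL. For STN8 it was larger than in 77.6% of the genes around it in LL and 48.6% in HL. The normalized log2 values of the STN7 replicates differed by 0.16 in LL and 0.24 in HL, where the median over the genes around it was 0.14 and 0.12, and those of STN8 by 0.29 and 0.12, where it was 0.16 and 0.12. The difference between conditions was therefore smaller than that between replicates for STN7 in both conditions and for STN8 in both conditions.

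PPH1 stood at the other end of the same order. Of the 500 genes nearest to it in mean level, between 37.9 and 47.5 FPKM, 471 (94.2%) had a smaller absolute log2 fold change, and 11 had a more negative one. Of these genes 7.60% were called repressed and 7.80% activated. PPH1 itself lay above this range of levels in both LL libraries and below it in both HL libraries. Its replicates differed by 0.11 in LL and 0.10 in HL on the normalized log2 scale, less than the median of 0.15 and 0.12 of the genes around it.

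**Figure D3:**
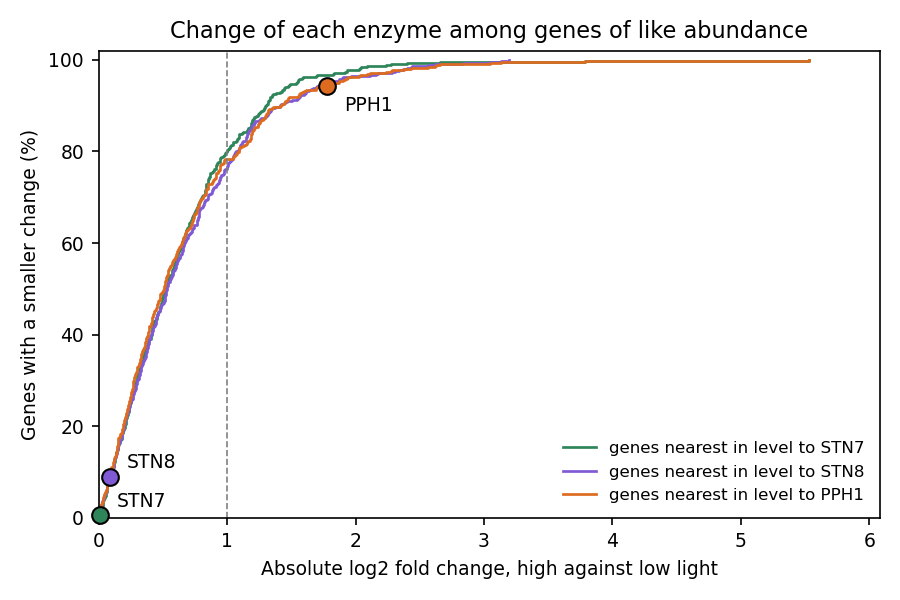
Cumulative share of genes (vertical axis, percent) by absolute log2 fold change of high against low light (horizontal axis) for the 500 genes nearest in level to each enzyme, with the enzyme itself as a filled point and a dashed line at the call threshold of 1. STN7 and STN8 sit at the foot of their curves, with 0.6% and 9.0% of genes changing less, and PPH1 sits at 94.2%.

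The genes around state transitions that the study names with identifiers were examined next, and since the study chose them on these same libraries they are no independent evidence of a direction. Of 8 genes of the antenna, photosystems and the chain between and behind them, 6 were called repressed and none activated, where 3.51% of all genes were repressed and 4.00% activated, with a median log2 fold change of -1.48, against 0.0035 over all genes detected in every library. LHCB1, a protein of the LHCII antenna that the kinase and phosphatase act on, fell from 107 and 96.3 FPKM in the LL libraries to 21.5 and 17.2 in the HL libraries. This drop was larger than that of PPH1 by the point estimate, with a log2 fold change of -2.27 (limma adjusted p = 0.0319), though the intervals of both genes overlapped and the difference was not tested. PsaO, a subunit of PSI next to which phosphorylated LHCII docks in plants, was repressed 3.35-fold, close to the 3.74-fold of PPH1. PsaD, which binds ferredoxin at PSI, was repressed 3.66-fold, PsbP and PsbW of PSII 2.74-fold and 2.63-fold, and ferredoxin-NADP-reductase (FNR) 2.68-fold.

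The mean FPKM of PetC, the Rieske protein of the cytochrome b6f complex that activates STN7 in plants, was 439 in LL and 289 in HL, and its log2 fold change of -0.71 (limma adjusted p = 0.0254) was short of the threshold of 1. Ferredoxin was also short of it, at -0.70. In the quantile normalized fit LHCB1 and PsaD were the genes of the 8 with a more negative log2 fold change than PPH1. The order of PsaD and PPH1 was not fixed, since PPH1 had the larger ratio of mean FPKM and was level with PsaD with median scaling (-1.65 against -1.64). The intervals of the kinases overlapped that of ferredoxin, and that of STN8 also overlapped the interval of PetC, and no difference between a kinase and these genes was tested. Set against the antenna transcript, PPH1 over LHCB1 was 0.749 and 0.861 in LL, and 1.04 and 1.23 in HL. STN7 over LHCB1 went from 0.431 and 0.519 to 2.31 and 2.48, and STN8 over LHCB1 from 0.416 and 0.368 to 1.54 and 2.19. Relative to this antenna transcript the mean of PPH1 was 1.41-fold higher in HL, with both HL libraries above both LL libraries, and those of STN7 and STN8 were 5.04-fold and 4.75-fold higher. These ratios to LHCB1 were chosen after the values were seen and were not tested. LHCB1 had the most negative log2 fold change of the 8 genes and fell more than PPH1. A rise of each enzyme over it therefore follows from this choice of denominator. Over a gene that fell less than PPH1, such as PsbP or FNR, the mean of PPH1 would be lower in HL.

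Of 6 genes that feed or drain the plastoquinone pool, whose redox state controls the kinase in plants, 2 were called activated and 1 repressed, beside the same 4.00% and 3.51% of all genes. PGR5, of the antimycin-sensitive cyclic route, rose 5.00-fold and the plastid terminal oxidase PTOX, which oxidizes plastoquinol, 3.86-fold. NdhO, a subunit of the NDH complex, was repressed 2.12-fold at a log2 fold change of -1.0, right at the threshold, and it fell short of it with median scaling (-0.85) and cyclic loess (-0.97). PGRL1, NdhM and NdhN had log2 fold changes of 0.23, -0.35 and -0.86, each with a limma adjusted p below 0.05 and none past the fold threshold. Over the genes of mean FPKM of at least 1 the adjusted p of limma was 0.163 for PGRL1, 0.067 for NdhM and 0.0105 for NdhN. With median scaling it was 0.024, 0.153 and 0.053 in the same order. Reduced thioredoxin is thought to inactivate STN7 in strong light in plants. The 3 genes of thioredoxin reduction examined here were called activated. Their FPKM ratios were 2.23 for kfl00120_0050, 2.86 for kfl00573_0030 and 2.10 for the NADPH-dependent thioredoxin reductase NTR. The study names them as examples of enzymes that serve the repair of oxidized proteins, and a link to STN7 was not tested. In all 17 genes of these lists the conditions did not overlap, as was so for 51.6% of all genes and for 78.9% of those above 0 in every library. The kinases differed from them in this. The study chose the 17 genes on these same libraries, so neither their separation nor the contrast with the kinases is independent evidence. Of the 17 genes 5 were activated and 7 repressed, against 7.51% of all genes called in either direction, and when 1 library was omitted no more than 2 were activated and 0 repressed.

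**Figure D4:**
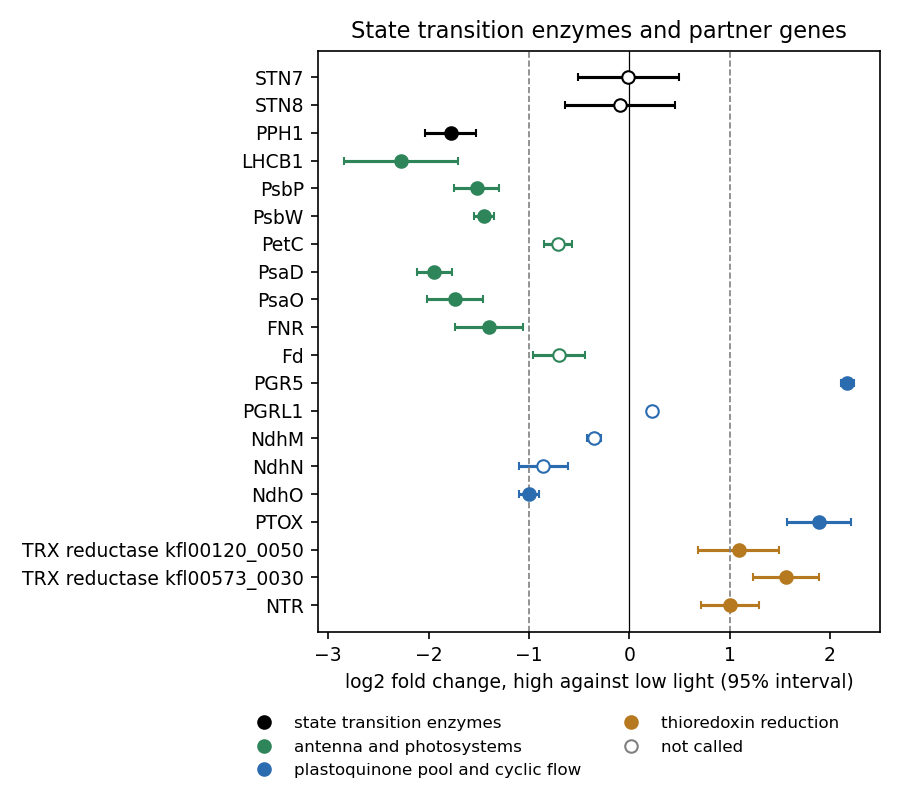
Log2 fold change of high against low light with its 95% interval from limma for the 3 state transition enzymes and 17 partner genes, filled where the gene was called and open where it was not, with dashed lines at -1 and 1. The intervals of STN7 and STN8 include 0, and that of PPH1, from -2.03 to -1.52, lies among those of the antenna and photosystem genes.

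The 3 genes lie on different scaffolds. In the annotation of assembly ASM70883v1, which contains the sequence that the study cites for its reference, STN7 is a protein-coding gene of 5810 bases on scaffold kfl00129 (49754 to 55563), STN8 one of 4847 bases on kfl00018 (110333 to 115179) and PPH1 one of 3731 bases on kfl00753 (30051 to 33781). Exons and strand are not part of the table used here. Next to PPH1, at 744 bases, lies kfl00753_0070, for which no name is given. Its FPKM was 33.3 and 27.4 in LL, and 15.6 and 14.6 in HL. Both HL libraries lay below both LL libraries here too, as for 33.1% of all genes and 50.0% of those above 0 in every library. Its log2 fold change of -0.80 was short of the threshold of 1 (limma adjusted p = 0.073). The adjusted p of limma was 0.0171 over the genes of mean FPKM of at least 1 and 0.0367 with a variance trend, and the gene was not called in either. The gene on the other side of PPH1, kfl00753_0090, is listed at 0 in all libraries. The gene 537 bases before STN7, kfl00129_0070, was at 14.0 and 11.1 FPKM in LL, and at 3.36 and 2.63 in HL, a log2 fold change of -1.39 that was not called (limma adjusted p = 0.0602). This gene was called in 3 of the 12 settings, at an adjusted p of limma of 0.00848 over the genes of mean FPKM of at least 1, 0.0496 without normalization and 0.0448 with a variance trend. Its mean FPKM was 4.19 times higher in LL, beside a ratio of LL to HL of 1.04 for STN7. The remaining neighbours, kfl00129_0090 after STN7 and kfl00018_0200 and kfl00018_0220 around STN8, had log2 fold changes of -0.20, 0.23 and -0.15 and were not called.

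By Euclidean distance over the 4 libraries on the normalized log2 scale, the gene with the profile most like that of STN7 was kfl00002_0430, at a distance of 0.07, with 48.0 and 49.6 FPKM in LL, and 51.1 and 42.3 in HL. For STN8 it was kfl00523_0010 at 0.14, and for PPH1 kfl00144_0020 at 0.25. The last had an FPKM of 75.1 and 79.5 in LL, and of 25.9 and 22.7 in HL, and was called repressed at a log2 fold change of -1.55 (limma adjusted p = 0.037). None of these genes has a name in the tables used. With 4 libraries in 2 conditions such a likeness describes levels only.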

How the data were processed

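Gene expression was measured by stranded mRNA sequencing in 2 low light and 2 high light cultures, which the study calls independent biological replicates. HISAT2 mapping and StringTie quantification were run by the authors within the MARACAS pipeline (tool versions not given in the sources used here). The values they deposited are FPKM of 17290 genes per library, before the quantile normalization that the study names. They sum to between 620013 and 660467 per library, and 11096 to 11321 genes are above 0. All 4 columns were matched to samples by title.

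A pseudocount of 1 was added, log2 values were quantile normalized, and all genes were tested with limma 3.58.1 under R 4.3.3, the normalization, tool and thresholds being those that the study's methods name. The pseudocount and the lack of a filter on low values are choices made here. Simulated data were run only through the variant of the fit restricted to genes of mean FPKM of at least 1. The fit without a filter, from which the values here come, was not run on them. Ratios, ranks and windows of 500 genes were computed in Python 3.11.15 with numpy 2.4.6 and scipy 1.17.1, and plots drawn with matplotlib 3.10.9. A fold change of a gene given as such is the ratio between 2 mean FPKM as deposited, without normalization. It includes any shift between libraries. The median FPKM over genes detected in every library was 17.2 and 16.6 in LL, and 14.4 and 14.8 in HL. The genes named are the 3 enzymes, 17 partner genes that the study names, direct neighbours in the genome and the gene with the nearest profile to each enzyme. Members and lists were chosen with earlier results of these data known. Locus numbers linked 16199 features to the gene table of ASM70883v1. The protein comparison planned was not run, as no sequences were used here. Alternatives covered pseudocount, filter, normalization, variance trend, replicate block, window size and each library left out.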

Additional observations from a re-analysis of the deposited data

How the results depend on the processing

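The repression of PPH1 kept its direction in all 11 alternatives to the fit, between -1.86 and -1.65 with all libraries and between -1.85 and -1.71 with a library left out. It was not called with the replicate number as a block (-1.78, limma adjusted p = 0.118) or with any library left out, in fits with fewer residual degrees of freedom. The labels do not say that equal numbers mark a shared batch, so the block is no pairing. In limma the replicate block left 0 activated and 0 repressed genes over all genes, and 0 and 0 among the partner genes, with 4365 genes at an unadjusted p below 0.05. The replicate differences of LL and HL correlated at -0.20 across genes, and with the numbers crossed, a setting chosen after seeing the data, limma also called 0 activated and 0 repressed genes (4383 at an unadjusted p below 0.05). Over all genes, 691 were activated and 607 repressed, against 1195 and 1215 with a mean FPKM of at least 1, 28 and 25 at an adjusted p below 0.01, and 141 to 180 and 75 to 242 with a library left out. Unadjusted, 5520 genes had a p below 0.05. With a library left out, 1 to 2 partner genes were activated and 0 repressed.

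STN7 reversed its sign with cyclic loess (0.028), median scaling of FPKM (0.15) and in 2 of the fits with a library left out, which ranged from -0.13 to 0.11 (0.11 without HL replicate 2 and 0.08 without LL replicate 2). STN8 reversed with median scaling (0.045) and without LL replicate 1 (0.055), and ranged from -0.24 to 0.055 with a library left out. Neither kinase came near the threshold, so these reversals are around 0. The share of genes of like abundance that changed less was 5.8% and 16.0% for STN7 and 17.0% and 3.8% for STN8 without normalization and with median scaling, and 7.20% to 13.4% and 2.60% to 25.2% with a library left out. Windows of 200 and 1000 genes gave 0.5% and 0.7% for STN7, and 8.0% and 10.2% for STN8. The smaller windows are contained in the larger ones, so the likeness of these shares does not show stability. The log2 changes of the ratios over PPH1 kept their sign, at 1.77 to 1.91 for STN7, 1.54 to 1.92 for STN8 and 1.73 to 1.86 for their sum with a library left out, whereas that of STN7 over STN8 was 0.11 with all libraries, -0.11 without LL replicate 1 and -0.090 without HL replicate 1, in a range of -0.11 to 0.33. With 2 replicates, leaving 1 out cannot move such a change by more than the replicate SD, so these ranges do not show stability. Among named genes, kfl00129_0090 reversed with median scaling (0.10), kfl00018_0200 with median scaling (-0.020) and no normalization (-0.20), kfl00018_0220 without LL replicate 2 (-0.32 to 0.021 with a library left out), and kfl00002_0430 with cyclic loess (0.019), median scaling (0.14) and without HL replicate 2 or LL replicate 2 (-0.17 to 0.12 with a library left out). For the named genes other than the 3 enzymes, 203 values under an alternative kept direction and call, 61 lost a call, 3 gained one and 8 reversed. The cause of these shifts was not tested.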
